A study of Mus musculus with 12 samples.

Results

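In all, 10 genes of the selenoprotein system were followed through the 4 groups of a mouse skin RNA-seq study: Selenop, Selenow, Selenof, Selenoh, Selenok, Selenom, Selenon, Selenos, Selenot and Sephs2. They were taken by symbol from the deposited gene table, which held all 10 of them among 18858 genes, and all 10 passed the filter on low counts that left 15791 genes for testing. The skin came from BALB/C mice, an inbred albino strain, given as 8 weeks old. The labels give 3 samples to each of 4 treatments, TL+L, TSeL, TSeL+L and PBS (phosphate-buffered saline, the control), and name no allele or transgene; the meaning of TL, TSeL and L is not spelled out, and the groups keep those labels here. They also do not say whether each sample is a separate animal, so a p-value measures only the spread between these samples, which may be technical.

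Selenoproteins carry selenocysteine, an amino acid built on its own transfer RNA and written by a UGA codon that in other messages ends translation. A stem-loop in the untranslated end of the message and its binding protein recode that UGA, and the selenium comes from selenophosphate, which the enzyme encoded by Sephs2 makes. The other genes differ in their roles. Selenop encodes the secreted carrier of selenium in plasma, Selenow a small protein abundant in muscle, Selenoh a nuclear protein, and Selenof, Selenom, Selenon, Selenot, Selenok and Selenos proteins of the endoplasmic reticulum (ER), where secreted proteins fold and calcium is stored.

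The codon that makes a gene a selenoprotein gene is shown for each of the 10, read from the GENCODE M21 transcript (GRCm38) that matches the RefSeq transcript with most of the gene's reads. Each line runs 5′ to 3′ along the message, with 12 bases on each side of the codon or up to the stop codon. Capitals mark the TGA (UGA in RNA) and, where one of the 4 codons before it encodes cysteine, that TGT or TGC codon. For Selenop, the first of its 10 TGA codons is shown.
Selenow (codon 13 of 88, exon 2 of 6, chr7:15920464-15920466, minus strand): tatTGTggagctTGAggctataagccc
Selenot (codon 49 of 195, exon 2 of 6, chr3:58585238-58585240, plus strand): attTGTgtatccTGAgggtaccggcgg
Selenoh (codon 38 of 116, exon 2 of 4, chr2:84670381-84670383, minus strand): catTGTacgagcTGAcgcgtgtacggc
Selenom (codon 48 of 145, exon 2 of 5, chr11:3516273-3516275, plus strand): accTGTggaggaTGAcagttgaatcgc
Selenof (codon 93 of 162, exon 3 of 5, chr3:144590645-144590647, plus strand): gaagtcTGCggaTGAaaattggggagg
Selenon (codon 428 of 557, exon 9 of 12, chr4:134542338-134542340, minus strand): gaccagtccTGCTGAggttccgggcgg
Selenok (codon 92 of 94, exon 4 of 5, chr14:29973440-29973442, plus strand): atggctggtggaTGAggaaggtaa
Selenos (codon 189 of 190, exon 6 of 6, chr7:66088844-66088846, plus strand): tcatctggcggcTGAaactaa
Sephs2 (codon 63 of 452, its only exon, chr7:127273731-127273733, minus strand): ggcatgaagggcTGAggctgcaaggtc
Selenop (codon 59 of 380, exon 2 of 5, chr15:3274848-3274850, plus strand): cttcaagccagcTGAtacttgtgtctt

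The sequences fall into a few layouts. In 4 genes, Selenow, Selenot, Selenoh and Selenom, a cysteine codon stands ahead of the TGA with 2 codons between, the spacing of the redox-active pair of thioredoxin-like proteins. Selenof has 1 codon between, and in Selenon the cysteine codon directly precedes the TGA. Only codons ahead of the TGA were searched. As printed, a cysteine codon follows the first TGA of Selenop with 2 codons between, and that of Sephs2 with 1 between. Selenok and Selenos carry the TGA within the last 3 codons of the coding sequence. Selenop is the exception in number: its other 9 TGA codons lie in the last exon, and the 90 bases at chr15:3279615-3279704 (plus strand) hold 5 of them.
Selenop, last 5 TGA codons: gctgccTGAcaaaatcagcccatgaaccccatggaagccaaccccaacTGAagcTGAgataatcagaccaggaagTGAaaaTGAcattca

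**Figure D1:**
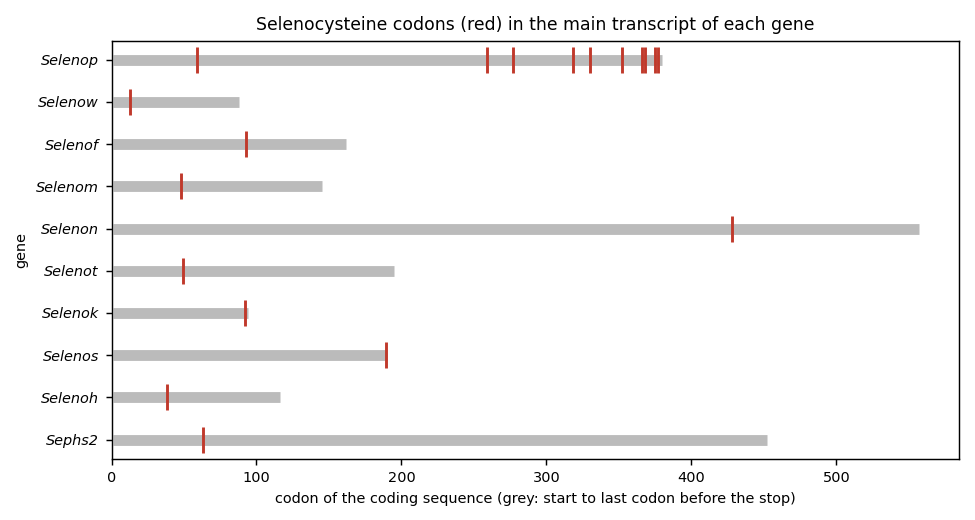
Position of each annotated selenocysteine codon (red) along the coding sequence (grey), in codons, for the main transcript of the 10 genes. Selenop holds 10 such codons and the other 9 genes hold 1 each; those of Selenok and Selenos stand at the end.

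The libraries were of similar depth, with 16630580 to 17318158 estimated counts in the 12 deposited columns. The 3 columns read as TSeL, and the 3 read as TSeL+L, differed by little more than counting noise: the median chi-square between a pair of columns was 1.12 to 1.17 and 1.23 to 1.29 times its chance value, against 8.87 to 37.5 times between TL+L samples and 7.42 to 13.9 times between PBS samples. Each of these sets was averaged and counted as 1 sample, so the comparisons rest on 3 TL+L, 1 TSeL, 1 TSeL+L and 3 PBS samples, and values of TSeL and TSeL+L have no replicates. TL+L replicate 2 stood apart from the other TL+L samples, with more muscle and fibroblast and fewer hair transcripts. Keratinocyte marker genes (8 of 8 detected in every sample) took 0.607% to 1.67% of the counts, as skin would have, and 13 of 13 skeletal muscle genes were detected throughout at 0.677% to 9.82%.

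Within skin the 10 transcripts covered a wide range of levels. Compared per length, in the authors' TPM (transcripts per unit of sequencing depth, corrected for length and summed over a gene's transcripts), Selenow averaged 793 ± 106 TPM and Selenop 625 ± 84.5 TPM in PBS samples (SD, n = 3), ahead of Selenof at 344 ± 23.8 TPM and Selenok at 181 ± 10.4 TPM. Selenow and Selenop lay above 98.8% and 98.5% of the tested genes in PBS, and Selenop did not differ from Selenow beyond their spread. Selenos (104 ± 13.7 TPM), Selenom (84.4 ± 15.3), Selenot (75.0 ± 2.95), Selenoh (70.4 ± 6.54) and Selenon (64.5 ± 6.18) formed a middle group whose neighbours overlapped, and Sephs2, the enzyme, was lowest at 37.1 ± 2.98 TPM (SD, n = 3 each). Sephs2 still lay above 75.6% of the tested genes. The order was another in TL+L samples, where Selenon, at 23.3 ± 6.88 TPM, was below Sephs2 at 50.1 ± 2.98 TPM (SD, n = 3 each). Summed over the 10 genes, the level was 1708.9, 2607 and 1813.1 TPM in TL+L replicates 1 to 3, 2931.9 in TSeL, 2317.7 in TSeL+L, and 2441.1, 2354.3 and 2340.6 TPM in PBS replicates 1 to 3. Selenow alone made up 1839.9 TPM of the TSeL sum, against 858, 850 and 671 TPM in PBS replicates 1 to 3. The high TSeL sum is therefore not a trait of the 10 genes together.

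TL+L skin was first set against PBS skin. Selenon, Selenom and Selenof, 3 genes of the ER, were called lower in TL+L skin, by 2.87-fold, 1.78-fold and 1.48-fold, and no gene of the 10 was called higher. DESeq2 and limma-voom, which called 25.7% and 12.6% of all tested genes, called the same 3 of the 10. By edgeR 5 of the 10 had an unadjusted p under 0.05, 2 of them with higher values, beside 5731 of all 15791 tested genes in either direction. Of all tested genes 7.17% were called lower and 5.67% higher in this comparison, and 12.8% in either direction (a call is an edgeR adjusted p under 0.05). The median log2 fold change was -0.26 over the 10 genes and 0.01 over all tested genes. Whether a lower value stands for fewer cells of a type or for less RNA per cell cannot be told apart in bulk skin.

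Selenon (NCBI gene 74777), whose ER membrane protein acts in calcium handling and whose loss causes a muscle disease in humans, showed the widest gap. It was at 37.1, 58.9 and 43.0 CPM (counts divided by each sample's TMM-scaled depth) in TL+L replicates 1 to 3, against 128, 132 and 139 CPM in PBS replicates 1 to 3. The highest TL+L sample was below the lowest PBS sample by more than the whole range of either group. The log2 fold change was -1.52 (SE 0.18, 95% interval -1.96 to -1.08) with an edgeR adjusted p of 0.0131. With 1 sample left out it ranged from -1.73 to -1.37, and the call was lost without any 1 of PBS replicates 1, 2 and 3 or TL+L replicate 3 (edgeR adjusted p of 0.0641, 0.0730, 0.0579 and 0.0598).

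Selenom (114679), a thioredoxin-like protein of the ER lumen, was at 14.9, 23.0 and 17.7 CPM in TL+L replicates 1 to 3 and at 28.1, 33.9 and 36.9 CPM in PBS replicates 1 to 3. Again no TL+L sample reached a PBS sample, although PBS samples differed among themselves with a coefficient of variation of 13.6%. The fitted log2 fold change was -0.83 (SE 0.20, 95% interval -1.31 to -0.35; edgeR adjusted p of 0.0451). Selenof (93684), which binds the ER sensor of glycoprotein folding, was at 174, 206 and 178 CPM in TL+L replicates 1 to 3, against 261, 287 and 277 CPM in PBS replicates 1 to 3. Its groups were narrow and apart, with coefficients of variation of 9.45% in TL+L and 4.91% in PBS, and its log2 fold change was -0.56 (SE 0.12, 95% interval -0.86 to -0.27; edgeR adjusted p of 0.0377). Neither call stood when counts were scaled by library totals (edgeR adjusted p of 0.0537 for Selenom and 0.0570 for Selenof) or with a replicate block. Both were also lost without any 1 of the PBS samples, TL+L replicate 1 or TL+L replicate 3 (edgeR adjusted p of 0.101 to 0.147 for Selenom and 0.109 to 0.138 for Selenof).

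**Figure D2:**
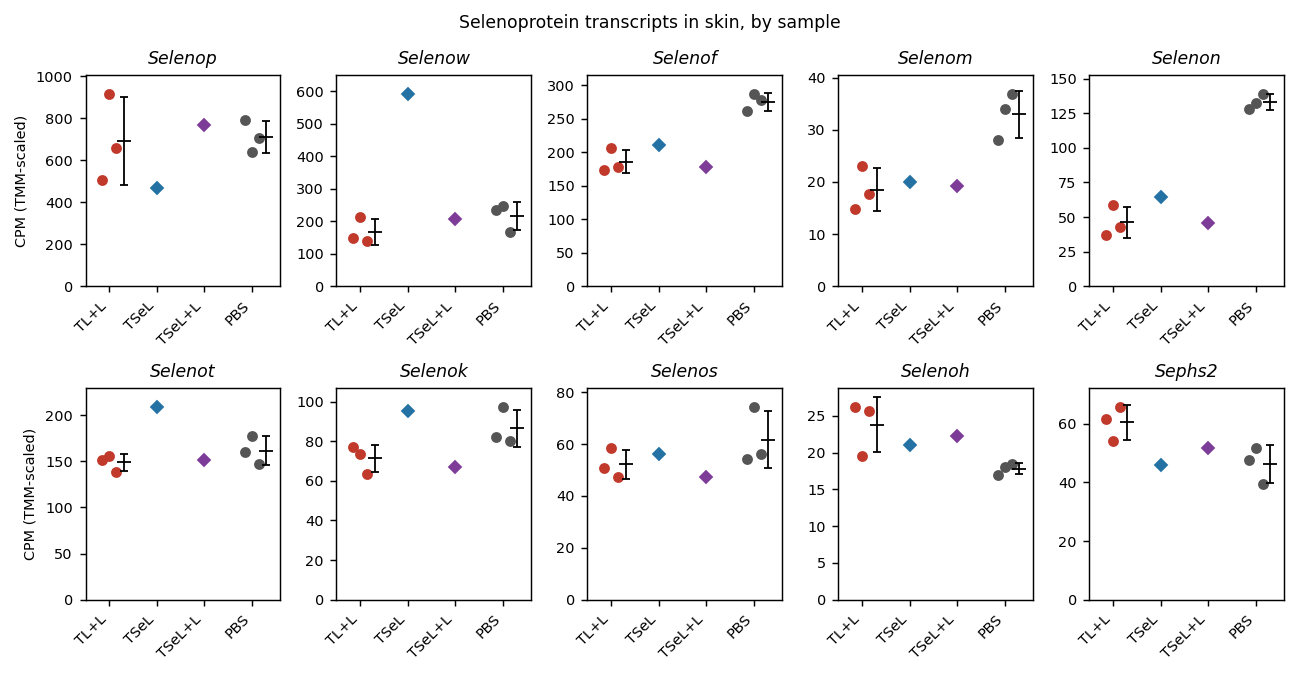
CPM of each gene in each sample, on axes that start at 0; circles are samples of TL+L and PBS with the mean and SD beside them (n = 3 each), and diamonds are the single averaged TSeL and TSeL+L samples. Selenon, Selenom and Selenof lie lower in every treated sample than in any PBS sample, and Selenow stands out in TSeL at 592 CPM.

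The remaining ER genes differed less. Selenok (80795), a membrane protein that helps to attach palmitate to a calcium channel in immune cells, was at 76.8, 73.7 and 63.5 CPM in TL+L, against 82.3, 97.2 and 79.9 CPM in PBS. Its samples did not overlap, though they did with library totals (66.1 to 84.6 CPM in TL+L and 78.5 to 92.8 CPM in PBS), and its log2 fold change of -0.28 (95% interval -0.59 to 0.03) did not pass (edgeR adjusted p of 0.172). Selenos (109815), which links misfolded ER proteins to the extraction machinery, was at 50.8, 58.4 and 47.4 CPM across TL+L replicates and 54.4, 74.3 and 56.2 CPM across PBS replicates. Its groups overlapped, with an interval of -0.62 to 0.14 for the log2 fold change. Selenot (69227), a thioredoxin-like membrane protein, was nearest to level among the ER genes, at 152, 156 and 139 CPM across TL+L replicates and 160, 178 and 147 CPM across PBS replicates, with an interval of -0.40 to 0.17 around a log2 fold change of -0.12 (0.02 with library totals).

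Outside the ER, Selenop and Selenow were the abundant genes. Their coefficients of variation were 30.1% and 23.6% in TL+L, and 10.7% and 19.3% in PBS. Selenop (20363) was at 504, 916 and 657 CPM in TL+L replicates 1 to 3 and at 790, 638 and 706 CPM in PBS replicates 1 to 3. TL+L replicate 2 was the highest and TL+L replicate 1 the lowest of these 6 samples, so the TL+L group enclosed the PBS group. The log2 fold change of -0.04 has an interval of -0.63 to 0.55, and it was 0.09 with library totals. Selenow (20364) was at 150, 212 and 138 CPM across TL+L replicates and at 234, 246 and 168 CPM across PBS replicates, with an overlap and an interval of -0.91 to 0.16.

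Selenoh and Sephs2 were the genes with higher values in TL+L, and neither passed with all samples. Selenoh (72657), a nuclear thioredoxin-like protein, was at 26.2, 19.5 and 25.7 CPM in TL+L replicates 1 to 3, against 17.0, 18.1 and 18.4 CPM in PBS replicates 1 to 3. Sephs2 (20768) was at 61.8, 54.0 and 65.7 CPM in TL+L replicates and at 47.5, 51.9 and 39.3 CPM in PBS replicates. In both genes every TL+L sample was above every PBS sample, with TL+L replicate 2 closest to PBS. Their log2 fold changes were 0.42 (95% interval 0.04 to 0.79) and 0.39 (0.04 to 0.73), each with an edgeR adjusted p of 0.110. Without TL+L replicate 2 the log2 fold changes were 0.54 and 0.46, both genes were called (edgeR adjusted p of 0.0147 and 0.0424), and 5 of the 10 genes were called in all, beside 40% of all tested genes in the same fit. Counted by overlap, 4 of the 10 genes lay lower in every TL+L sample than in any PBS sample and 2 lay higher, beside 21.8% and 20.6% of all tested genes. With library totals these counts were 3 and 2, beside 15.6% and 30.5% of all tested genes.

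The TSeL sample was set against PBS with 1 sample of the treatment, assumed to vary like the TL+L and PBS samples. None of the 10 genes was called, as none of all tested genes was (0%); 3 of the 10 had an unadjusted p under 0.05, 1 of them higher and 2 lower, beside 12.3% and 7.36% of all tested genes. Selenow showed the largest difference, at 592 CPM in TSeL, against 234, 246 and 168 CPM in PBS replicates 1 to 3. That is 2.74-fold (log2 fold change 1.45, 95% interval 0.75 to 2.16, edgeR adjusted p of 0.120). With 1 sample left out, the log2 fold change ranged from 1.27 to 1.56. Scaled by library totals, the 3 TSeL columns gave 493, 522 and 498 CPM, all above the highest PBS sample at 235 CPM.

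Skeletal muscle genes were highest in the same sample. The 13 muscle genes took 9.82% of the counts in TSeL, 0.677% to 3.20% in TL+L, 2.60% in TSeL+L and 1.21% to 3.31% in PBS; all 13 had positive log2 fold changes in TSeL against PBS, with a median of 2.18, and none was called by edgeR or limma-voom (11 had an unadjusted p under 0.05 by edgeR, and DESeq2 called 6). Across the 8 samples, the 3 with the least Selenow (138, 150 and 168 CPM) were the 3 with the least muscle (1.33%, 0.677% and 1.21%), a match noticed after the values were seen. The part of muscle in the Selenow difference was not tested. Selenot, at 209 CPM in TSeL against 160, 178 and 147 CPM in PBS, was also highest there, though its interval of -0.03 to 0.77 includes 0.

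Selenon had no such high value. It was at 64.7 CPM in TSeL, against 128 to 139 CPM in PBS, a log2 fold change of -1.04 (95% interval -1.69 to -0.39, edgeR adjusted p of 0.142). With 1 sample left out, it ranged from -1.07 to -1.04. Selenom was at 20 CPM (log2 fold change -0.72, -1.43 to -0.01) and Selenof at 210 CPM (-0.39, -0.82 to 0.04), each lower than in any PBS sample. By DESeq2 Selenow and Selenon were called of the 10, beside 8.59% of all tested genes, and by limma-voom none. Selenop was lowest of all samples in TSeL, at 469 CPM, with a log2 fold change of -0.60 and an interval of -1.47 to 0.27. Sephs2 showed a log2 fold change of 0.00 with an interval of -0.50 to 0.49, at 46.1 CPM in TSeL beside a PBS mean of 46.2 ± 6.39 CPM (SD, n = 3).

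TSeL+L was likewise 1 sample. Set against PBS, no gene of the 10 was called by edgeR, which called 0.0127% of all tested genes, or by limma-voom; 2 were by DESeq2, which called 9.59% of all tested genes. Selenon was at 46.0 CPM, a log2 fold change of -1.53 (95% interval -2.20 to -0.86; edgeR adjusted p of 0.0928), Selenof at 178 CPM (-0.63, -1.06 to -0.19) and Selenom at 19.2 CPM (-0.78, -1.49 to -0.07). These 3 were the genes with an unadjusted p under 0.05, all lower, beside 11.1% of all tested genes in that direction. With 1 sample left out, the log2 fold change ranged from -1.56 to -1.47 for Selenon and from -0.67 to -0.60 for Selenof. Comparisons with PBS share the PBS samples, so the like values in TL+L and TSeL+L are no independent repeat.

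**Figure D3:**
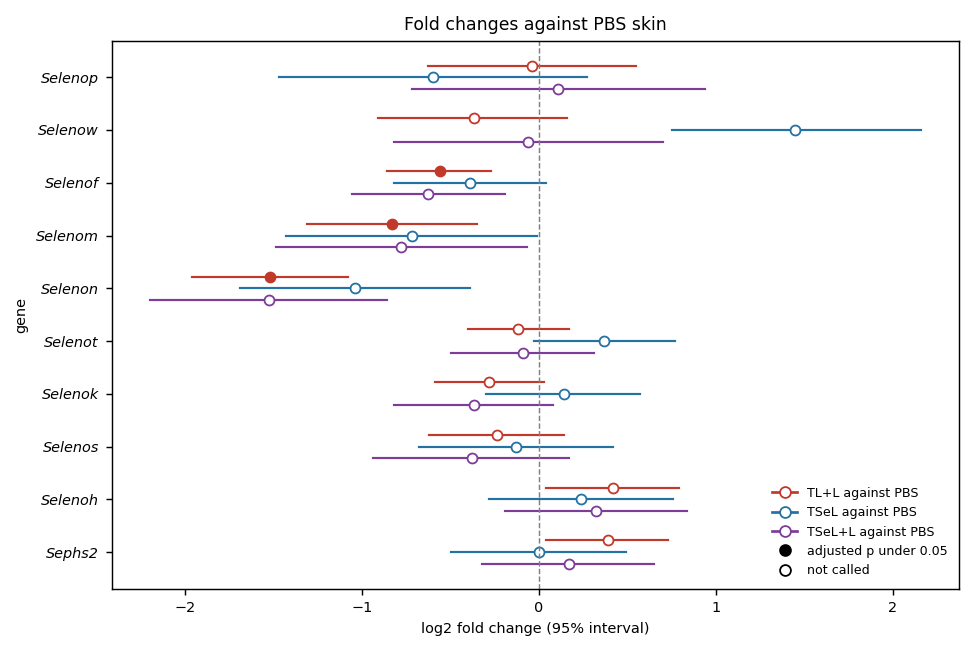
log2 fold change of each gene against PBS, with its 95% interval, for TL+L (n = 3), TSeL (1 sample) and TSeL+L (1 sample) against 3 PBS samples. Filled circles mark the calls, which are Selenof, Selenom and Selenon in TL+L; Selenow in TSeL is the only point above 1.

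Between TSeL+L and TL+L none of the 10 genes was called by edgeR, DESeq2 or limma-voom and none had an unadjusted p under 0.05. That is little evidence of likeness, because 0% of all tested genes were called and 0.336% had such a p. Differences ran from a log2 fold change of -0.22 for Sephs2 (51.9 CPM in TSeL+L beside a TL+L mean of 60.5 ± 5.96 CPM) to 0.32 for Selenow (207 CPM in TSeL+L beside a TL+L mean of 167 ± 39.3 CPM; SD, n = 3 each). Selenon, the gene with the lowest fold change against PBS in both, was at 46.0 CPM in TSeL+L beside a TL+L mean of 46.3 ± 11.2 CPM (SD, n = 3).

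The addition of L to TSeL was compared between 1 sample of each. Selenow was at 207 CPM in TSeL+L, against 592 CPM in TSeL, a log2 fold change of -1.51 (95% interval -2.46 to -0.56; edgeR adjusted p of 0.380). It was the only one of the 10 with an unadjusted p under 0.05, beside 12.1% of all tested genes, and none was called by edgeR (0% of all tested genes) or limma-voom; DESeq2 called 1 of the 10, Selenow, and 2.29% of all tested genes. Selenop ran the other way, at 767 CPM in TSeL+L, against 469 CPM in TSeL, with an interval of -0.32 to 1.74. Selenok and Selenot were at 66.8 and 152 CPM in TSeL+L, against 95 and 209 CPM in TSeL. The muscle genes took 2.60% of the counts in TSeL+L and 9.82% in TSeL.

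Markers of other cells also differed between TL+L and PBS. Fibroblast genes (8 of 8 detected in every sample) took 1.05%, 3.65% and 2.17% of the counts in TL+L replicates 1 to 3, 1.96% in TSeL, 2.28% in TSeL+L and 4.52%, 4.33% and 6% in PBS replicates 1 to 3. All 8 had negative log2 fold changes in TL+L (median -1.11), and 1 was called lower, beside 7.17% of all tested genes. Macrophage genes (9 of 9) took 0.106% to 0.282% in TL+L, 0.207% in TSeL, 0.208% in TSeL+L and 0.312% to 0.460% in PBS. All 9 had negative log2 fold changes in TL+L, and 1 was called lower. Neutrophil genes (10 of 10, all with negative log2 fold changes in TL+L and 8 called lower) took 0.133% to 0.541% in TL+L, 0.340% in TSeL, 0.187% in TSeL+L and 0.535% to 0.822% in PBS. Endothelial genes (7 of 7, all with negative log2 fold changes in TL+L and 4 called lower) took 0.0335% to 0.0583% in TL+L, 0.0424% in TSeL, 0.0389% in TSeL+L and 0.0761% to 0.108% in PBS. For the fibroblast, macrophage and endothelial lists every PBS sample lay above every treated sample and TL+L replicate 2 was the highest of TL+L, while for the neutrophil list TL+L and PBS samples overlapped. The part of these cells in the lower Selenon, Selenom and Selenof was not tested.

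Hair, sebaceous and keratinocyte genes took larger shares of the counts in TL+L, where Selenoh and Sephs2 also had their higher values. Hair shaft genes (12 measured) took 0.235% to 2.51% of the counts in TL+L, 0.00302% in TSeL, 1.06% in TSeL+L and 0.00134% to 0.0883% in PBS. Of the 12, 6 had 0 counts in at least 1 PBS or TSeL sample. All 12 had positive log2 fold changes in TL+L against PBS, and edgeR called none. DESeq2 called 11 and limma-voom 2, beside 25.7% and 12.6% of all tested genes. Keratinocyte genes took 1.19% to 1.28% in TL+L, 0.607% in TSeL, 1.67% in TSeL+L and 0.739% to 1.05% in PBS. In TL+L 7 of the 8 had positive log2 fold changes, and 2 were called higher, beside 5.67% of all tested genes. Sebaceous gland genes (7 of 7, with 6 positive log2 fold changes in TL+L and 4 called higher) took 0.229% to 0.236% in TL+L, 0.102% in TSeL, 0.233% in TSeL+L and 0.0582% to 0.0642% in PBS. Adipocyte genes (7 of 7, all with positive log2 fold changes in TL+L and 1 called higher) took 0.115% to 0.293% in TL+L, 0.0966% in TSeL, 0.135% in TSeL+L and 0.0640% to 0.0922% in PBS. The part of these cells in Selenoh and Sephs2 was not tested.

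**Figure D4:**
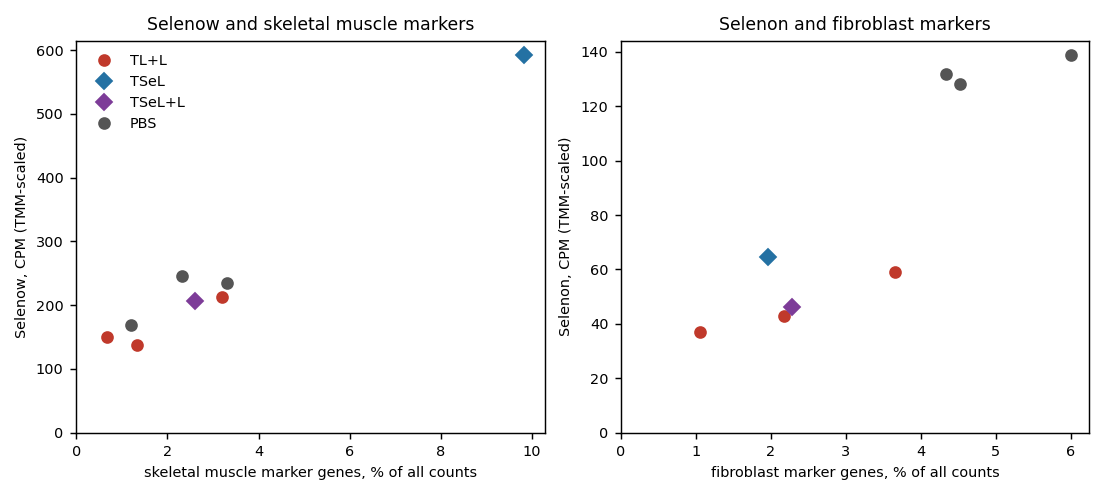
Left, Selenow (CPM) against the share of counts in 13 skeletal muscle genes (%); right, Selenon (CPM) against the share in 8 fibroblast genes (%); each point is a sample (3 TL+L, 1 TSeL, 1 TSeL+L, 3 PBS). TSeL is alone at 9.82% muscle and 592 CPM Selenow, and the PBS samples are together at 4.33% to 6% fibroblast and 128 to 139 CPM Selenon.

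The rest of the selenium pathway was read from lists of related genes. The list for making and inserting selenocysteine, to which Sephs2 belongs by function, had 14 genes tested. It includes Rpl30, Ncl, Eif4a3, Celf1 and Elavl1, which are not confined to this task. Of the 14, 13 had positive log2 fold changes in TL+L against PBS (median 0.25, against 0.01 over all tested genes). With library totals all 14 did (median 0.39, against 0.15 over all tested genes). The test called 1 higher, beside 5.67% of all tested genes. This was Trit1 (66966), which modifies transfer RNAs including that of selenocysteine, at 22.9, 18.6 and 25.6 CPM in TL+L, against 12.8, 13.8 and 14 CPM in PBS, a log2 fold change of 0.72 (SE 0.16; edgeR adjusted p of 0.0385). Its call was lost with a replicate block, or without any 1 sample but TL+L replicate 2 (edgeR adjusted p of 0.105 to 0.137). In TSeL+L against PBS 13 of the 14 had positive values (median 0.25). In TSeL against PBS 11 had (median 0.15, against 0.01 over all tested genes), or 4 with library totals (median -0.03, against -0.18 over all tested genes). None was called in either by edgeR, DESeq2 or limma-voom, and 2 in TSeL+L had an unadjusted p under 0.05 by edgeR.

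Among other selenium-dependent redox enzymes, 12 of 14 were tested, and the median was -0.05 in TL+L against PBS, or 0.08 with library totals. The test called 1 lower, beside 7.17% of all tested genes, and none higher. By edgeR 5 of the 12 had an unadjusted p under 0.05, 3 of them with higher values, beside 5731 of all 15791 tested genes in either direction. DESeq2 called 4 of the 12, 2 of them higher, beside 25.7% of all tested genes. Msrb1 (27361), the selenoprotein that repairs oxidized methionine, was at 38.3, 52.4 and 38.7 CPM in TL+L, against 82.0, 97.6 and 83.5 CPM in PBS, a log2 fold change of -1.02 (SE 0.16; edgeR adjusted p of 0.0239). The groups were well apart, and single values were 83.3 CPM for TSeL and 43.0 CPM for TSeL+L. Its call was lost without any 1 sample but TL+L replicate 2 (edgeR adjusted p of 0.0668 to 0.103).

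Genes of selenium uptake and binding moved in both directions, with 2 of 8 higher and 1 lower by the test, beside 5.67% and 7.17% of all tested genes. Selenbp1 (20341), a selenium-binding protein that holds no selenocysteine, was at 96.4, 52.7 and 72.2 CPM in TL+L, against 18.8, 13.6 and 26.5 CPM in PBS (log2 fold change 1.91, SE 0.32; edgeR adjusted p of 0.0261). It was at 86.5 CPM with TSeL+L and 18.7 CPM with TSeL. Selenbp2 (20342), its close paralog, at 5.84 ± 1.86 CPM across TL+L and 1.2 ± 0.552 CPM across PBS samples (SD, n = 3 each), rose by 2.27 on the log2 scale, and reads shared between these copies make the level of each uncertain. Lrp1 (16971), a large endocytic receptor of the LDL receptor family, was at 402, 740 and 543 CPM in TL+L, against 1283.2, 1101.9 and 1287.7 CPM in PBS, a log2 fold change of -1.12 (SE 0.25; edgeR adjusted p of 0.0394). Each of these 3 calls was likewise lost without any 1 sample but TL+L replicate 2 (edgeR adjusted p of 0.0605 to 0.135). The call of Lrp1 was also lost with a replicate block.

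The partners of the ER selenoproteins gave no edgeR call in TL+L against PBS among 15 genes. By edgeR 4 of the 15 had an unadjusted p under 0.05, beside 5731 of all 15791 tested genes. DESeq2 and limma-voom called 1 of the 15 each, beside 25.7% and 12.6% of all tested genes. The median of the partners was -0.08, or 0.05 with library totals. Uggt2, a sensor of glycoprotein folding and kin of the partner of Selenof, had the smallest p of the list, at 7.44 ± 4.07 CPM across TL+L and 19.4 ± 2.73 CPM across PBS samples (SD, n = 3 each; edgeR adjusted p of 0.0575). Of 14 ER stress genes, 13 had negative log2 fold changes (median -0.26), or 10 with library totals. None of the 14 was called by edgeR, DESeq2 or limma-voom. By edgeR 3 of them had an unadjusted p under 0.05, beside 5731 of all 15791 tested genes. Herpud1, which serves ER protein disposal, was at 49.9 ± 3.05 CPM across TL+L and 60.9 ± 0.265 CPM across PBS samples, and Xbp1, a transcription factor of the stress response, at 140 ± 12.8 CPM across TL+L and 176 ± 8.48 CPM across PBS samples (SD, n = 3 each; edgeR adjusted p of 0.0918 and 0.0942). Of 8 genes of calcium handling and ER oxidation all 8 had negative log2 fold changes (median -0.44), or 7 with library totals. The 8 include the muscle genes Ryr1 (-0.74) and Atp2a1 (-0.49). In TSeL against PBS 5 of the 8 had positive values (median 0.46). In TL+L the test called 1 of the 8 lower, beside 7.17% of all tested genes. Orai1 (109305), the channel for calcium entry when ER stores are empty, fell, at 16.3, 18.3 and 14.7 CPM across TL+L and 23.3, 26.9 and 23.4 CPM across PBS replicates (log2 fold change -0.58, SE 0.14, edgeR adjusted p of 0.0465). Its call was lost with library totals (edgeR adjusted p of 0.0756), without the filter on low counts (0.0512), with a replicate block, or without any 1 sample but TL+L replicate 2 (0.111 to 0.170). Without TL+L replicate 2, Uggt2, Herpud1 and Xbp1 were called lower (edgeR adjusted p of 0.00194 to 0.0331). That fit called 40% of all tested genes in either direction, so these calls say little about the lists.

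**Figure D5:**
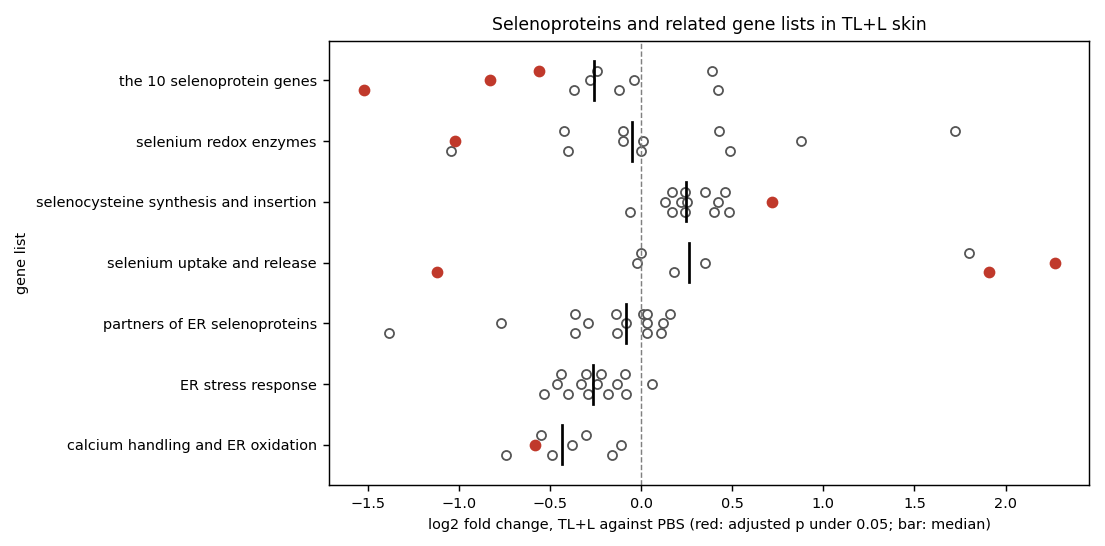
log2 fold change in TL+L (n = 3) against PBS (n = 3) for each tested gene of the 10 and of 6 related lists; red points passed the test and black bars are list medians. Medians run from -0.44 for calcium handling and ER oxidation to 0.26 for selenium uptake and release.

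The 10 genes were read from few transcripts. A single transcript was deposited for 7 genes, and in Selenop and Selenos 1 transcript held 96.7% to 98.6% and 99.0% to 100% of the gene's TPM in every sample. Selenoh was divided: NM_001033166 held 87.0%, 85.7% and 81.4% in TL+L replicates 1 to 3, 81.1% in TSeL, 84.7% in TSeL+L and 73.3%, 82.9% and 84.1% in PBS replicates 1 to 3, so the shares overlapped.

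A further feature of these messages is where the TGA stands in the spliced RNA. In 7 genes (Selenop by its first TGA, Selenow, Selenof, Selenoh, Selenom, Selenon and Selenot) the TGA lies more than 55 bases ahead of the last exon junction, from 78 bases in Selenof to 470 in Selenot. Selenok has it 5 bases ahead, Selenos has it in the last exon, and Sephs2 has 1 exon only.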

How the data were processed

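Poly(A) RNA from skin was prepared with the Illumina TruSeq RNA kit and oligo-dT beads, per the labels' protocols. The authors deposited expected counts (estimated reads) per gene and TPM per transcript; Bowtie2 and RSEM appear in the submitters' processing notes, and their versions, the genome build, the annotation and the strand setting were not given in the sources used here. Of the deposited expected counts 88.7% were whole as written (tolerance 0), and all were rounded. TPM of a gene was the sum over its transcripts. Of the other value columns, 36 of each table (such as FPKM and group averages) were not used.

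Column codes gave the samples. The code TS was taken as TSeL and TSL as TSeL+L, a reading on which all their values depend; the columns of each carry a single number, so none could be tied to 1 labelled sample. The 3 columns of each were averaged into 1 sample, from a comparison of counts over genes with at least 40 counts in a pair.

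Genes passing filterByExpr (15791) were fitted with edgeR 4.0.16 in R 4.3.3, with a robust quasi-likelihood F-test, two-sided, TMM factors (0.852 to 1.1), 1 coefficient per group and Benjamini-Hochberg adjustment over all tested genes. SE is the log2 fold change over the root of F, and 95% intervals use the moderated degrees of freedom (6.59 to 6.63 for the 10 genes; 4 residual). Counts of the 10 genes ran from 279 to 16088 per sample. With 3 samples in each of 2 groups, the smallest exact permutation p is 0.1. Alternatives were DESeq2 1.42.0, limma-voom (limma 3.58.1), other scalings and filters, 12 columns as samples, only the compared groups, a replicate block and left-out samples.

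Sequences were read from GENCODE M21 (GRCm38), by the RefSeq name of the transcript; no coordinates of the files were used. Marker and pathway lists held 155 genes, of which 154 were in the table. From each pathway list, up to 3 genes called in TL+L against PBS were named, or the 2 with the smallest p where none was. For 1 gene that this rule names, the result is not reported here. The 10 genes and the lists were chosen with earlier results of these data known.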

Additional observations from a re-analysis of the deposited data

How the results depend on the processing

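Genes called among all tested and among the 10 were 2029 and 3 in TL+L against PBS, 0 and 0 in TSeL against PBS, 2 and 0 in TSeL+L against PBS, and 0 and 0 in TSeL+L against TL+L and against TSeL. DESeq2 called 4064 genes in TL+L against PBS, 1356 with 2 of the 10 in TSeL, 1515 with 2 in TSeL+L, 1 gene in TSeL+L against TL+L, and 361 with 1 of the 10 in TSeL+L against TSeL. With all 12 columns as samples the counts were 7164 with 6 of the 10, 6521 with 6, 7093 with 6, 3, and 6618 with 5, in the same order; that setting takes columns that differ by little more than counting noise as replicates. With only the compared groups in the fit they were 417 with 2 in TSeL and 1802 with 1 in TSeL+L against PBS, and TSeL+L against TSeL could not be fitted so, having 1 sample on each side. Limma-voom called 4 genes in TSeL+L against PBS. With library totals 1 of the 10 was called in TL+L against PBS, where all tested genes had a median of 0.15 (log2), against 0.01 with TMM, and the 10 genes a median of -0.12. With 1 sample left out, TL+L against PBS gave 16 to 6299 genes and 0 to 5 of the 10, TSeL against PBS 0 to 1315 and 0 to 2, TSeL+L against PBS 0 to 2163 and 0 to 2, and both comparisons between treated groups 0. The top of each range was without TL+L replicate 2 (without TL+L replicate 1, 183 genes and 1 of the 10), and the cause was not tested.

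Replicate numbers shared by TL+L and PBS gave no clear sign of pairing: the correlations of same-numbered deviations were -0.17, 0.13 and 0.21, and sample 3 was the only TL+L sample to match its own number best. Deviations within a group of 3 are tied to each other, so this check cannot exclude a pairing. A replicate block gave 1066 genes and 1 of the 10, Selenon.

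Signs changed for small log2 fold changes that were not called. With library totals they were 0.09 for Selenop and 0.02 for Selenot in TL+L, -0.05 for Selenok in TSeL, 0.10 for Selenow and 0.07 for Selenot in TSeL+L against PBS, 0.02 for Selenon in TSeL+L against TL+L, and 0.10, 0.28 and 0.09 for Selenof, Selenom and Selenos in TSeL+L against TSeL. That scaling also moved the median over all tested genes. It was 0.15, -0.18 and 0.16 in TL+L, TSeL and TSeL+L against PBS. In TSeL+L against TSeL it was 0.27, against -0.07 with TMM. Selenon in TSeL+L against TL+L was 0.02 with limma-voom, 0.01 with TMM without hair and muscle genes, with the stricter filter and with only the compared groups, and 0.00 with 12 columns; Sephs2 in TSeL against PBS was 0.01 with limma-voom and 0.00 with no filter. With 1 sample left out the ranges were -0.29 to 0.16 for Selenop in TL+L, -0.23 to 0.03 for Selenos and -0.14 to 0.09 for Sephs2 in TSeL, and -0.18 to 0.04 for Selenow in TSeL+L against PBS. In TSeL+L against TL+L they were -0.13 to 0.20 for Selenon, -0.02 to 0.40 for Selenop, -0.07 to 0.23 for Selenom, -0.10 to 0.02 for Selenof and -0.01 to 0.06 for Selenot. Depth limits little here, since the least counted of the 10, Selenoh, had 279 or more counts in every sample; the single TSeL and TSeL+L samples limit more.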
